A study of Homo sapiens with 6 samples.

Results

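The 37 genes of the human mitochondrial genome were compared between LN229 cells with HSD52 overexpression and control LN229 cells. They were taken as every row of the deposited count table that lies on chromosome MT, 37 of 58735 genes in all: 13 protein-coding genes, 2 ribosomal RNA genes and 22 transfer RNA genes. LN229 is an established human glioblastoma line, and HSD52 is a long non-coding RNA gene. There were 3 RNA-seq libraries of LN229 with HSD52 overexpression (HSD52_OE) and 3 of LN229 with the genotype given as WT (control). The labels name neither the vector nor whether the control cells received one, nor whether the libraries of a group came from separate cultures, so the spread that the p-values rest on is that among libraries and may be partly technical.

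The mitochondrial genome is transcribed from both strands into long RNAs that hold many genes, and these are cut apart, mostly at the tRNAs that lie between the others. The mRNAs encode membrane subunits of respiratory complexes I, III and IV and of the ATP synthase (complex V), which are assembled with subunits encoded in the nucleus. Because all genes of a strand start in a shared transcript, unequal steady levels are generally ascribed to processing and decay of the separate RNAs. Most human mitochondrial mRNAs carry a short poly(A) tail, which for several of them also completes the stop codon, whereas tRNAs carry none, and MT-ND6 mRNA is described as having little or no tail. Per the labels' protocols, RNA was selected on poly-T beads before fragmentation and random priming. All counts here therefore describe RNA that passed this selection and not the amounts in the cell. This holds for the rRNA and tRNA genes and MT-ND6 as for the other mRNAs.

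HSD52 had 1252, 1336 and 1327 counts in HSD52_OE replicates 1 to 3, against 11, 7 and 12 counts in control replicates 1 to 3, so the labels fit the targeted gene. Libraries held 17777157 to 18917790 counts in HSD52_OE and 18250494 to 18574853 counts in control. At this similar depth, 26359 to 26755 genes had a count in HSD52_OE libraries and 22855 to 23545 in control libraries. The part of this difference in the mitochondrial ones was not tested. VIM, NES, S100B and SOX2, which glioma cells commonly express, averaged 1201, 758, 327 and 118 CPM (read counts relative to the TMM-scaled library size) in HSD52_OE, against 1369, 700, 441 and 93.6 CPM in control. Other markers of the same kind were low. GFAP, OLIG2 and AQP4 averaged 7.29, 18.6 and 0.053 CPM in HSD52_OE, against 4.83, 17.7 and 0.037 CPM in control. Of 9 tested glioma and astrocytic markers 3 rose (SOX2, GFAP and FABP7) and 3 fell (S100B, CD44 and EGFR, the last by 1.05 on the log2 scale), and AQP4 was too low to test. Of 13 markers of other cell types 6 were tested, with KRT18 higher and COL1A1, LUM and PECAM1 lower. In each list 66.7% of those tested were called (edgeR adjusted p under 0.05), against 50.6% of all genes tested. COL1A1, a fibroblast collagen gene, averaged 5.44 CPM in HSD52_OE and 72.4 CPM in control. The 13 markers summed to 146 to 154 CPM in HSD52_OE and 165 to 250 CPM in control. Most of this came from KRT18, COL1A1 and LUM. KRT18 averaged 125 CPM in HSD52_OE and 99.0 CPM in control, and LUM 16.9 CPM in HSD52_OE and 37.2 CPM in control. CD3E and ALB, of T cells and hepatocytes, had 0 counts in all 6 libraries. The part of these marker differences in the mitochondrial ones was not tested.

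Of the 16322 genes tested, 50.6% were called in edgeR's quasi-likelihood test, at a p under 0.05 after Benjamini-Hochberg adjustment over all of them. These calls were 25.0% of genes tested higher and 25.6% lower in HSD52_OE. Of the 37 mitochondrial genes, 27 had enough counts to be tested, and 8 of these rose and 2 fell. That is 37.0% of those tested, a share below that over all genes, so the number of calls is not a result about mitochondrial genes. The groups did not overlap for 10 of the 27, against 58.9% of all genes tested (29.6% higher and 29.3% lower in HSD52_OE). The median log2 fold change (HSD52_OE over control) was 0.25 over the 27 genes and 0.01 over all genes tested. Mitochondrial genes took 3.49%, 3.53% and 3.33% of all counts in HSD52_OE libraries, against 3.38%, 2.64% and 2.94% in control libraries, so this total overlapped between the groups. In bulk libraries, the number of mitochondria per cell and the RNA per mitochondrion cannot be told apart. What follows describes which members moved and how unequally they did so. The numbers of called genes moved with single libraries. Leaving out HSD52_OE replicate 1 gave 4 higher genes, where 20.2% of all genes tested were higher. Leaving out control replicate 1 gave 13, beside 22.1% of all genes, and leaving out control replicate 3 gave 5, beside 25.3%. There were 2 lower genes under every alternative.

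Sequence ends and overlaps are shown first because they bear on how the counts can be read. All 37 genes had the same coordinates and strand in the table as in GENCODE release 29, from whose GRCh38 transcripts the sequences were read. Below, MT-ND3 rose, MT-ND4 fell, MT-CO2 rose and MT-ND4L was not called. The last 30 bases of each are given with the stop codon, or the part of it that the genome encodes, in capitals.
MT-ND3 (chrM:10375-10404, plus strand): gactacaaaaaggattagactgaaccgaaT
MT-ND4 (chrM:12108-12137, plus strand): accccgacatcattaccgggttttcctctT
MT-CO2 (chrM:8240-8269, plus strand): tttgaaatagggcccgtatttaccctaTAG
MT-ND4L (chrM:10737-10766, plus strand): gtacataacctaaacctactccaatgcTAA

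MT-ND3 and MT-ND4, which moved in opposite directions, both end in a lone T and need added A residues for a stop codon. By length, 6 of the 13 mRNAs end in an incomplete codon and 7 in a complete one. The log2 fold changes spanned -0.53 to 0.82 in the 6 and -0.16 to 0.33 in the 7, with medians of 0.08 and 0.06.

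Some genes share bases. MT-ATP8 overlaps MT-ATP6 by 46 bases and MT-ND4L overlaps MT-ND4 by 7, since each pair is carried on a shared mRNA with overlapping reading frames. The end of MT-ATP8 and the start of MT-ND4 are printed with the shared part in capitals.
MT-ATP8 end (chrM:8513-8572, plus strand): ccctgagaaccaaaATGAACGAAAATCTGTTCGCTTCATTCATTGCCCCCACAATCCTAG
MT-ND4 start (chrM:10760-10789, plus strand): ATGCTAAaactaatcgtcccaacaattata

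How reads over shared bases were assigned is not given in the sources used here. MT-ATP8, at 71.2 CPM per kb in HSD52_OE and 71.0 CPM per kb in control, was counted far below MT-ATP6, at 3716 CPM per kb in HSD52_OE and 4044 CPM per kb in control, although both sit on the same mRNA. The level of MT-ATP8 is therefore uncertain. Strand was not stated either, so reads from MT-ND6 and the 8 tRNA genes of the minus strand cannot be told apart from RNA of the opposite strand. The MT-ND5 mRNA is known to run on opposite MT-ND6.

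Per kb of gene length, the mRNAs of the 3 catalytic subunits of cytochrome c oxidase (complex IV) had the highest means in both groups. MT-CO2 stood at 6936 ± 49.1 CPM per kb in HSD52_OE and 5513 ± 719 CPM per kb in control (SD, n = 3 each). MT-CO1 had 5829 ± 54.8 CPM per kb in HSD52_OE and 5563 ± 848 CPM per kb in control. MT-CO3 had 5321 ± 420 CPM per kb in HSD52_OE and 4414 ± 622 CPM per kb in control. The order of these 3 was not resolved in control, where their spreads overlap. MT-ATP6, of the ATP synthase, came next by its mean in both groups, but in control its spread (4044 ± 444 CPM per kb) overlaps that of MT-CO3.

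The middle of the order differed between the groups. MT-ND3 had rank 5 in HSD52_OE, at 3245 ± 205 CPM per kb, and rank 7 in control, at 1841 ± 160 CPM per kb. MT-ND4 had rank 7 in HSD52_OE, at 1819 ± 65.6 CPM per kb, and rank 5 in control, at 2631 ± 344 CPM per kb. By their means, MT-ND4L, MT-CYB, MT-ND2 and MT-ND1 kept the ranks 6, 8, 9 and 10 in both groups, and MT-ND5, MT-ND6 and MT-ATP8 were the lowest. In control the spreads of MT-ND4L (2026 ± 447 CPM per kb), MT-ND3 and MT-CYB (1742 ± 165 CPM per kb) overlap, so their order was not resolved there. Each of the 13 mRNAs varied more between control libraries, with a coefficient of variation of 0.709% to 12.5% in HSD52_OE and 8.72% to 48.1% in control.

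**Figure D1:**
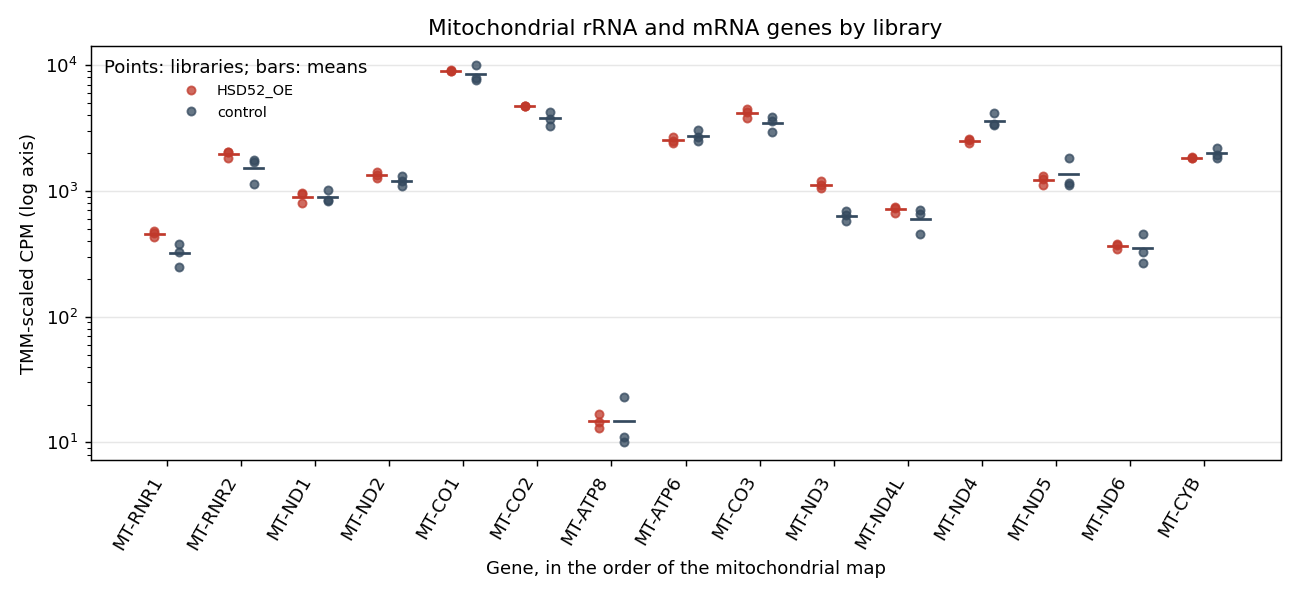
TMM-scaled CPM (log axis) of the 2 rRNA and 13 mRNA genes in each library, in map order, with HSD52_OE left and control right for each gene; bars are means of 3 libraries. The groups do not overlap for MT-RNR1, MT-RNR2, MT-CO2, MT-ND3 and MT-ND4, with MT-ND4 the one that is lower in HSD52_OE, and MT-ATP8 lies far below the others at 14.7 CPM in both groups.

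Complex I takes electrons from NADH, and its 7 mitochondrial subunits form part of the membrane arm. Their mRNAs moved in both directions: 1 rose, 1 fell and 5 were not called, so 28.6% were called against 50.6% of all genes tested. MT-ND3 had 1118, 1196 and 1054 CPM in HSD52_OE libraries, against 691, 580 and 639 CPM in control libraries. Every HSD52_OE library was above every control library, and the log2 fold change was 0.82 ± 0.10 (SE; edgeR adjusted p = 8.13e-06). MT-ND3 encodes a small subunit near the junction of the 2 arms of the complex. At 346 bases, its gene is shorter than the fragments of preferentially 370 to 420 bp selected for the libraries. A fragment of that size on MT-ND3 reaches beyond the gene. MT-ND4, which encodes a proton-pumping subunit, had 2529, 2585 and 2408 CPM in HSD52_OE libraries, against 4172, 3376 and 3327 CPM in control libraries. Here every HSD52_OE library was below every control library, and MT-ND4 fell by 0.53 ± 0.11 on the log2 scale (edgeR adjusted p = 0.000902).

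Between these genes on the map lie MT-TR, the tRNA gene for arginine, and MT-ND4L, so the change turned from higher to lower within a few neighbouring genes. MT-TR had 2.53 ± 0.331 CPM in HSD52_OE and 2.39 ± 0.366 CPM in control, with a log2 fold change of 0.08 ± 0.23 that was not called. MT-ND4L had 747, 733 and 666 CPM in HSD52_OE, against 702, 451 and 652 CPM in control. Its groups overlap, and its log2 fold change of 0.25 ± 0.13 did not pass (edgeR adjusted p = 0.128), though it did in 3 of 15 alternatives.

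Ratios within a library do not depend on the scaling between libraries. The counts of MT-ND3 over those of MT-ND4 were 0.442, 0.463 and 0.438 in HSD52_OE, against 0.166, 0.172 and 0.192 in control, a mean ratio 2.53 times higher. The counts of MT-ND4L over those of MT-ND4, its partner on the shared mRNA, were 0.295, 0.284 and 0.277 in HSD52_OE, against 0.168, 0.134 and 0.196 in control. Neither ratio overlapped between the groups. Per kb, MT-ND4L lay above MT-ND4 in HSD52_OE (2408 and 1819 CPM per kb) and below it in control (2026 and 2631 CPM per kb). With both genes on the same mRNA, the counts of either are uncertain as a measure of its amount. The ratios were picked out after their genes' values were known, so they are given with no test.

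The other complex I mRNAs were not called. MT-ND1 averaged 900.2 ± 88.5 CPM in HSD52_OE and 896 ± 103 CPM in control, with a log2 fold change of 0.01. MT-ND2 averaged 1347 ± 73.0 CPM in HSD52_OE and 1207 ± 118 CPM in control, with a log2 fold change of 0.16. MT-ND5, the longest of the 13 genes, averaged 1227 ± 94.9 CPM in HSD52_OE and 1373 ± 408 CPM in control. MT-ND6, the only mRNA gene of the minus strand, averaged 364 ± 19.3 CPM in HSD52_OE and 349 ± 93.5 CPM in control. Control replicate 1 held the highest control value of MT-ND5, 1844 CPM, where the other control libraries had 1152 and 1124 CPM. Together the 7 genes took 24.7% ± 0.618 of mitochondrial counts in HSD52_OE and 27.8% ± 0.964 in control.

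Complex IV reduces oxygen to water. MT-CO2, its copper-binding electron entry subunit, had 4755, 4771 and 4706 CPM in HSD52_OE, against 4271, 3288 and 3754 CPM in control. The groups did not overlap, and MT-CO2 rose by 0.33 ± 0.11 on the log2 scale (edgeR adjusted p = 0.0207). Without control replicate 2 the log2 fold change was 0.23 and the call was lost (edgeR adjusted p = 0.0737). The call was also lost without any 1 HSD52_OE library (edgeR adjusted p = 0.0754 to 0.0853), with the log2 fold change still at 0.33. MT-CO3 had 4171 ± 329 CPM in HSD52_OE and 3460 ± 487 CPM in control, a log2 fold change of 0.27 ± 0.12 that did not pass (edgeR adjusted p = 0.0680), though it was called higher in 5 of 15 alternatives. MT-CO1, which holds the oxygen-reducing centre, averaged 8988 ± 84.5 CPM in HSD52_OE and 8577 ± 1308 CPM in control, a log2 fold change of 0.07 ± 0.12 (edgeR adjusted p = 0.657). The 3 genes took 54.0% ± 0.839 of mitochondrial counts in HSD52_OE and 50.6% ± 0.848 in control.

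The remaining mRNAs were not called. MT-CYB, the cytochrome b subunit of complex III, averaged 1844 ± 28.9 CPM in HSD52_OE and 1987 ± 188 CPM in control. MT-ATP6 averaged 2531 ± 144 CPM in HSD52_OE and 2754 ± 302 CPM in control. MT-ATP8 averaged 14.7 ± 1.84 CPM in HSD52_OE and 14.7 ± 7.06 CPM in control. The log2 fold changes were -0.11 ± 0.10, -0.12 ± 0.11 and 0.00 ± 0.30. Across the 13 mRNAs, shorter genes tended to have the higher log2 fold changes (Spearman's rho -0.43 with gene length, and -0.58 over 12 mRNAs without MT-ATP8). This is a description across genes that share libraries, transcripts and size selection. MT-ATP8, left out in the second value, is the shortest gene and goes against the tendency. No value was computed without MT-ND3 or MT-ND4.

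The same genes were also tested relative to the pool of the 13 mitochondrial mRNAs, in a fit on the whole table with their summed counts as library size. A shift common to all mitochondrial mRNAs cancels in this fit, in which 41.0% of all genes tested passed, 17.5% higher and 23.5% lower. Of the 27 mitochondrial genes, 5 were higher and 2 lower. MT-ND3 rose by 0.75 ± 0.15 and MT-ND4 fell by 0.59 ± 0.15 on the log2 scale (edgeR adjusted p = 1.73e-05 and 0.000974). MT-CO2, at 0.27 ± 0.15, did not pass (edgeR adjusted p = 0.149). The spread in this fit is set by nuclear as well as mitochondrial genes, and the pool contains each mRNA tested.

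**Figure D2:**
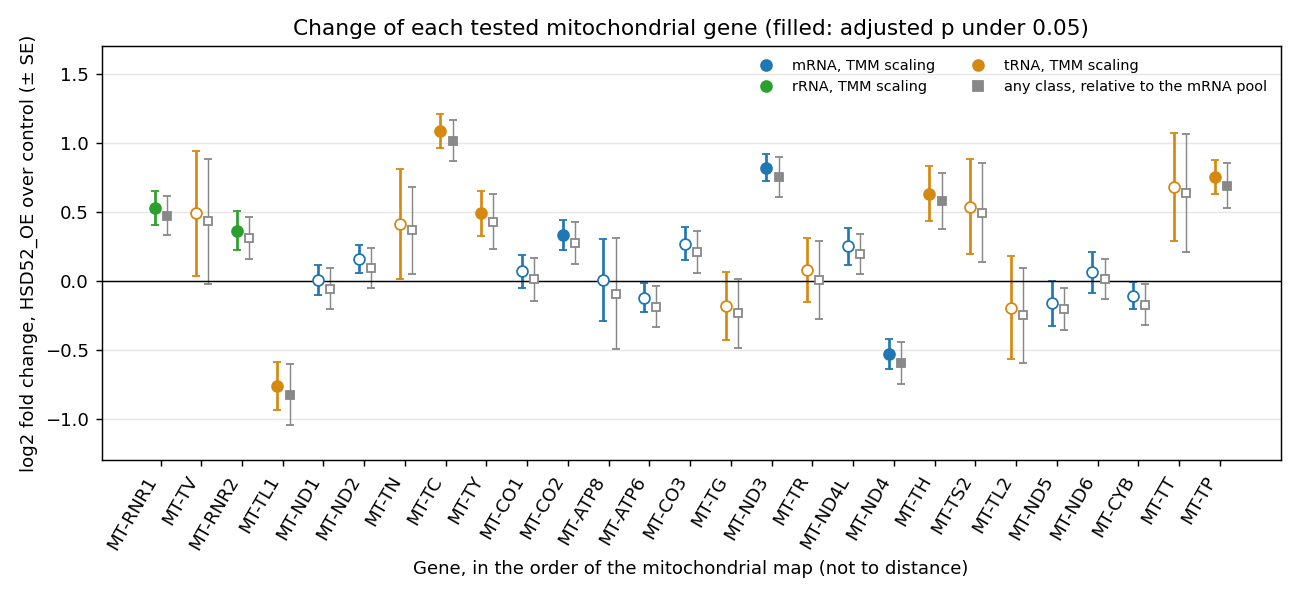
Log2 fold change (HSD52_OE over control, ± SE) of the 27 tested mitochondrial genes in map order, with distances not to scale. Coloured circles are the TMM-scaled fit by class, grey squares the fit relative to the pool of mitochondrial mRNAs, and filled symbols passed an adjusted p of 0.05. MT-ND3 at 0.82 and MT-ND4 at -0.53 lie on either side of MT-TR and MT-ND4L, and the lowest value is MT-TL1 at -0.76.

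Both ribosomal RNA genes rose. MT-RNR1, the small-subunit rRNA of the mitochondrial ribosome, had 466, 482 and 427 CPM in HSD52_OE, against 379, 249 and 327 CPM in control. It rose by 0.53 ± 0.12 on the log2 scale (edgeR adjusted p = 0.00236). MT-RNR2, the large-subunit rRNA, had 2056, 2029 and 1836 CPM in HSD52_OE, against 1770, 1131 and 1703 CPM in control. It rose by 0.36 ± 0.14 (edgeR adjusted p = 0.0391). Without control replicate 2 its log2 fold change was 0.18 (edgeR adjusted p = 0.143). The call was also lost without control replicate 3, at a log2 fold change of 0.44 (edgeR adjusted p = 0.0525), and without any 1 HSD52_OE library, at 0.33 to 0.41 (edgeR adjusted p = 0.0602 to 0.123). The groups did not overlap for either gene, and control replicate 2 was the lowest library for both. Relative to the mRNA pool MT-RNR1 rose by 0.47 ± 0.14 (edgeR adjusted p = 0.00529, and 0.0539 without HSD52_OE replicate 2), and MT-RNR2 had 0.31 ± 0.15 (0.0965).

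Both rRNA genes together took 7.54%, 7.39% and 7.07% of mitochondrial counts in HSD52_OE, against 5.96%, 4.94% and 6.82% in control. The tRNA genes together took 0.702%, 0.660% and 0.683% in HSD52_OE, against 0.464%, 0.376% and 0.551% in control. The mRNAs took the rest, 92.0% ± 0.247 in HSD52_OE and 93.6% ± 1.03 in control. None of these 3 shares overlapped between the groups, with the mRNA share lower and the others higher in HSD52_OE.

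**Figure D3:**
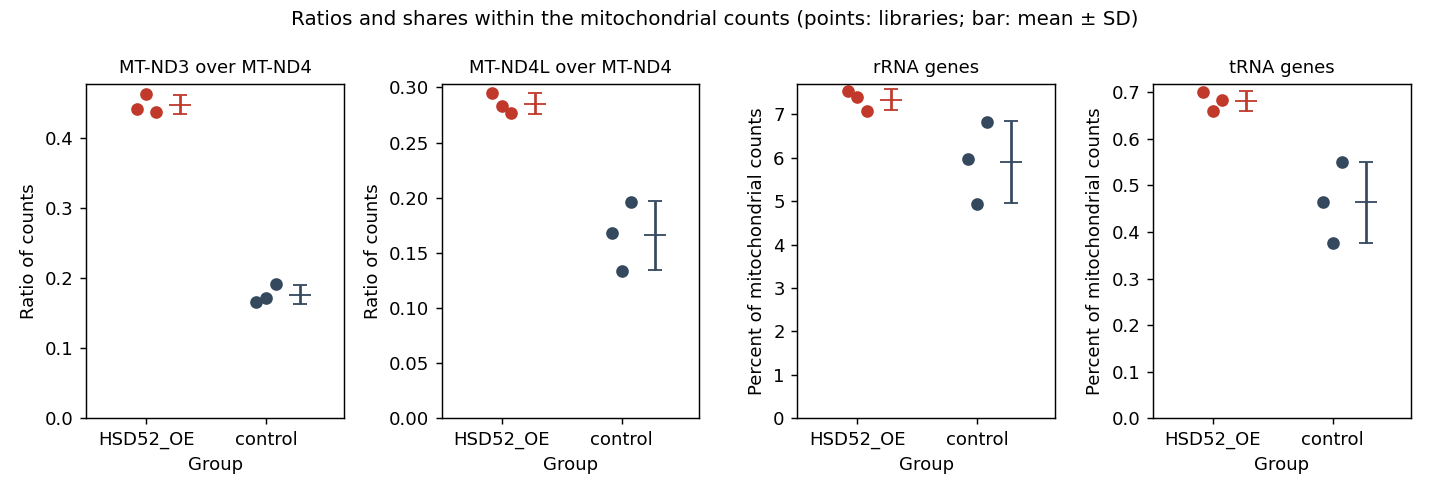
Counts of MT-ND3 and of MT-ND4L over those of MT-ND4, and the percent of all mitochondrial counts on the rRNA and tRNA genes, by library; points are libraries and bars are mean ± SD of 3. All axes start at 0, and in each panel the HSD52_OE libraries lie above the control libraries, by the widest margin for MT-ND3 over MT-ND4 (0.448 ± 0.0133 and 0.177 ± 0.0138).

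Nuclear snRNA and snoRNA genes, whose RNAs mostly carry no poly(A) tail, had higher summed levels in every HSD52_OE library than in any control library. The snRNA genes summed to 47.0, 46.0 and 37.3 CPM in HSD52_OE, against 12.3, 16.2 and 15.0 CPM in control, here with no TMM scaling. The snoRNA genes summed to 57.8 ± 3.59 CPM in HSD52_OE and 23.8 ± 6.84 CPM in control on the same scale. Of the list of small RNAs and histone genes without a poly(A) tail, 8 of 30 were tested, and 1 rose and 1 fell, a smaller share than over all genes tested: RNU5A-1, a spliceosomal RNA gene, rose by 1.58 ± 0.25, and the histone gene HIST1H2AC fell by 1.30 ± 0.16 on the log2 scale. The part of poly(A) selection in the rRNA and tRNA differences was not tested.

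The tRNA genes that were called are shown with the anticodon in capitals, as their DNA sequence in the direction of the gene.
MT-TC (chrM:5761-5826, minus strand, cysteine): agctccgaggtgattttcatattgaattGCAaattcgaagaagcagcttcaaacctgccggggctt
MT-TY (chrM:5826-5891, minus strand, tyrosine): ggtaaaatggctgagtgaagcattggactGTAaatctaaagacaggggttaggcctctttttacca
MT-TP (chrM:15956-16023, minus strand, proline): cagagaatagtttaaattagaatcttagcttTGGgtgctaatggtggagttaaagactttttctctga
MT-TH (chrM:12138-12206, plus strand, histidine): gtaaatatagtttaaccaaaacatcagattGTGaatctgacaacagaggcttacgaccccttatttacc
MT-TL1 (chrM:3230-3304, plus strand, leucine): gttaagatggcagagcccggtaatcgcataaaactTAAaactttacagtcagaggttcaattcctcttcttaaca

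The tRNA genes are 59 to 75 bases long, while the libraries were selected for fragments of preferentially 370 to 420 bp, so a fragment counted on one reaches into flanking sequence. MT-ND3, MT-ND4L and MT-ATP8, at 346, 297 and 207 bases, are also shorter than such fragments. Of 22 tRNA genes, 12 had enough counts to be tested, and 4 rose and 1 fell. That is 41.7% called, below the 50.6% of all genes tested. MT-TC had 1600, 1630 and 1744 counts in HSD52_OE, against 703, 556 and 897 counts in control. In CPM this was 86.5 ± 1.92 in HSD52_OE and 40.8 ± 9.07 in control, and MT-TC rose by 1.08 ± 0.12 on the log2 scale (edgeR adjusted p = 4.63e-06). MT-TP had 517, 652 and 609 counts in HSD52_OE, against 353, 266 and 349 counts in control, and rose by 0.75 ± 0.12 (edgeR adjusted p = 0.000132). The groups did not overlap for either gene.

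MT-TY, which adjoins MT-TC and shares 1 base with it, had 189, 186 and 170 counts in HSD52_OE, against 137, 124 and 95 counts in control, and rose by 0.49 ± 0.16 (edgeR adjusted p = 0.0204). MT-TH, next to MT-ND4, had 232, 189 and 185 counts in HSD52_OE, against 151, 127 and 80 counts in control, and rose by 0.63 ± 0.20 (edgeR adjusted p = 0.0158). Both kept their direction but lost the call with some libraries left out. MT-TY had a log2 fold change of 0.43 without HSD52_OE replicate 1 and 0.48 without HSD52_OE replicate 2 (edgeR adjusted p = 0.0851 and 0.0633), and 0.33 without control replicate 3 (edgeR adjusted p = 0.0796). MT-TH had 0.49 without HSD52_OE replicate 1 (edgeR adjusted p = 0.0850) and 0.39 without control replicate 3 (edgeR adjusted p = 0.0636).

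MT-TL1, the tRNA gene between MT-RNR2 and MT-ND1, went the other way. It had 66, 85 and 73 counts in HSD52_OE, against 126, 106 and 116 counts in control, and fell by 0.76 ± 0.17 on the log2 scale (edgeR adjusted p = 0.00180). All HSD52_OE libraries were below all control libraries, although the rRNA gene on one side rose and MT-ND1 on the other was not called. Its counts as a ratio to those of MT-ND1 were 0.00377, 0.00461 and 0.00464 in HSD52_OE, against 0.00725, 0.00725 and 0.00767 in control.

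By strand, 3 of the 4 tested tRNA genes of the minus strand rose, and of the 8 tested on the plus strand 1 rose and 1 fell. Over all genes tested, 25.0% were higher and 25.6% lower. The strand here is that of the gene, since reads cannot be told apart from those of opposite-strand RNA. Minus-strand tRNA genes summed to 205, 198 and 195 CPM in HSD52_OE, against 137, 81.3 and 145 CPM in control. Plus-strand tRNA genes summed to 29.4, 26.1 and 23.8 CPM in HSD52_OE, against 30.3, 23.7 and 19.5 CPM in control. The minus-strand sums were higher in every HSD52_OE library, while the plus-strand sums overlapped. The difference between the strands was not tested.

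MT-TN, the minus-strand tRNA gene for asparagine just beside MT-TC, was not called. It had 1500, 1329 and 1303 counts in HSD52_OE, against 1128, 470 and 1260 counts in control, where replicate 2 stood low (log2 fold change 0.41 ± 0.40, edgeR adjusted p = 0.445). The other tested tRNA genes were MT-TG, MT-TR, MT-TL2, MT-TS2, MT-TT and MT-TV. Their mean levels were 0.858 to 3.43 CPM in HSD52_OE and 0.607 to 3.89 CPM in control, and their log2 fold changes ran from -0.20 for MT-TL2 to 0.68 for MT-TT with none called.

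The 10 tRNA genes that were too low to test had at most 22 counts in a library and 2 to 56 counts over the 6 libraries. They were MT-TF, MT-TI, MT-TQ, MT-TM, MT-TW, MT-TA, MT-TS1, MT-TD, MT-TK and MT-TE. MT-TI, singled out after its values were seen, had 19, 2 and 14 counts in HSD52_OE, against 3, 2 and 2 counts in control. In the fit with no filter beyond 1 count, MT-TI was higher in HSD52_OE by 2.11 ± 0.70 on the log2 scale (edgeR adjusted p = 0.0118), and the other 9 did not pass. With control replicate 1, 2 or 3 left out, the usual filter kept MT-TI and its adjusted p was 0.0574, 0.0764 and 0.0734. It passed without HSD52_OE replicate 2, the one with 2 counts in that group (edgeR adjusted p = 0.00293).

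**Figure D4:**
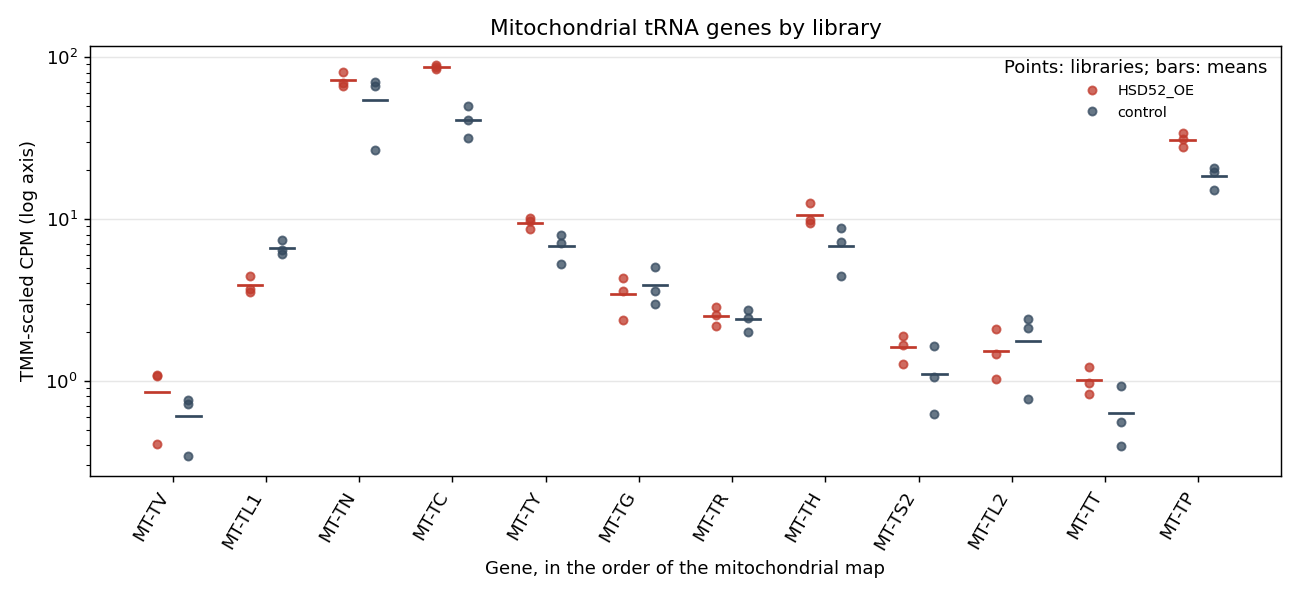
TMM-scaled CPM (log axis) of the 12 tested mitochondrial tRNA genes in each library, in map order, with HSD52_OE left and control right; bars are means of 3 libraries. MT-TC, MT-TN and MT-TP hold most tRNA counts, MT-TC stands at 86.5 CPM in HSD52_OE and 40.8 CPM in control, and MT-TL1 is lower in HSD52_OE.

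Nuclear copies of mitochondrial genes can share reads with their sources. Of 394 pseudogenes named as such copies, 62 had a count and 3 were tested, all in one block of chromosome 1. MTND2P28, a copy of MT-ND2, held 2265, 2397 and 2184 counts in HSD52_OE, against 1702, 1577 and 1741 counts in control, and rose by 0.32 ± 0.08 on the log2 scale (edgeR adjusted p = 0.00442). MTATP6P1 and MTCO1P12 were not called. The 3 copies amounted to 8.84%, 3.60% and 0.195% of the counts of MT-ND2, MT-ATP6 and MT-CO1 in HSD52_OE, and to 7.94%, 3.82% and 0.200% in control. The other pseudogenes of this set held at most 35 counts each over all libraries, those of MT-ND3 and MT-ND4 among them. Only symbols made of MT, the gene, P and a number were taken as copies, so copies named otherwise were left out. Adding these copies to their sources left the counts of called genes at 8 higher and 2 lower, beside 25.0% and 25.6% of all genes tested. The addition was no check on the rRNA and tRNA genes. Their ratios of HSD52_OE over control shares of all counts stayed unchanged, at 1.43 and 1.69.

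The nuclear partners of these subunits were counted from fixed lists of core complex I subunits and of complexes III, IV and V. Of 42 such genes 2 rose and 20 fell, where 25.0% of all genes tested rose and 25.6% fell. Their median log2 fold change was -0.21. Among the lower were NDUFS7 of complex I (-0.75 ± 0.11), UQCRC1 of complex III (-0.39 ± 0.08), COX5A of complex IV (-0.67 ± 0.09) and ATP5F1D of complex V (-0.81 ± 0.09). UQCRC2, a core protein of complex III, rose by 0.30 ± 0.09. Of the 13 mitochondrial mRNAs 2 rose and 1 fell, and their median log2 fold change was 0.06. The difference between both sets was not tested.

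By complex, the listed nuclear genes of complex IV summed to 1798, 1812 and 1807 CPM in HSD52_OE, against 1883, 2116 and 2050 CPM in control. The ratio of mitochondrial to nuclear complex IV counts was 9.91 ± 0.154 in HSD52_OE and 7.90 ± 1.60 in control. For complex I this ratio was 13.1 ± 0.924 in HSD52_OE and 11.8 ± 2.01 in control, and for complex V 0.941 ± 0.0630 in HSD52_OE and 0.864 ± 0.124 in control. For complex III it was 1.33 ± 0.0210 in HSD52_OE and 1.33 ± 0.243 in control. The complex IV ratios were higher in every HSD52_OE library, though control replicate 1, at 9.68, lay close to the lowest of them, 9.74, and those of complexes I, III and V overlapped.

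The lists of nuclear genes that copy and express mitochondrial DNA were called at shares below the 50.6% of all genes tested. Of 10 genes of mitochondrial transcription and packaging, 2 rose and 2 fell. POLRMT, the mitochondrial RNA polymerase, had 64.9 ± 2.69 CPM in HSD52_OE and 107 ± 15.0 CPM in control and fell by 0.73 ± 0.10 on the log2 scale (edgeR adjusted p = 2.63e-05). MTERF4 fell by 0.26, and MTERF1 and MTERF2, of the same family, rose by 0.72 and by 0.92. Of 13 genes of replication and nucleotide supply, 5 rose and 1 fell. The one that fell was POLG, the catalytic subunit of the mitochondrial DNA polymerase, with 52.6 ± 1.06 CPM in HSD52_OE and 103 ± 6.90 CPM in control (log2 fold change -0.97 ± 0.08, edgeR adjusted p = 3.39e-07). RRM2B, a ribonucleotide reductase subunit, rose by 0.59, RNASEH1, which removes RNA from hybrids with DNA, by 0.39, and the nucleotide carrier SLC25A36 by 0.70.

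Of 27 tested genes of mitochondrial RNA processing and modification, 7 rose and 4 fell, which is 40.7% called, again below the share over all genes. GRSF1, an RNA-binding protein of mitochondrial RNA granules, fell by 0.47 ± 0.08 (edgeR adjusted p = 0.000151). KIAA0391, the nuclease subunit that cuts tRNA ends, rose by 0.71 ± 0.16, PTCD3, of the mitochondrial ribosome, by 0.48, and TRMU, a tRNA-modifying enzyme, by 0.43. Of 9 genes of polyadenylation, stability and decay, 1 rose and 2 fell, or 33.3% called. SUPV3L1, the helicase of the mitochondrial degradosome, rose by 0.24, while TACO1, an activator of MT-CO1 translation, fell by 0.48 and ANGEL2 by 0.51.

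Of 11 tested regulators of mitochondrial biogenesis, 1 rose and 4 fell, with GABPA (0.49) higher and YY1 (-0.40), CREB1 (-0.43) and ESRRA (-0.30) among the lower. Of 20 nuclear markers of mitochondrial content, 2 rose and 7 fell, with examples in the chaperonin genes HSPE1 (-0.53) and HSPD1 (-0.42), the import pore gene TOMM40 (-0.43) and the channel gene VDAC2 (-0.31). Called genes made up less than the 50.6% of all genes in either list, with 45.5% of the regulators. The median log2 fold changes of these lists were -0.23 and -0.12, against 0.01 over all genes tested.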

How the data were processed

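RNA from 3 HSD52_OE and 3 control libraries was measured by poly(A)-selected RNA-seq. The deposited values are raw read counts per gene, whole numbers. The submitters' processing notes name CASAVA, HISAT2 2.0.5, featureCounts 1.5.0-p3 and the hg38 build. Not given in the sources used here were the annotation release, the strand setting and the handling of reads with several alignments. Gene lengths are those of the deposited table. Multi-mapped reads dropped or shared would change genes with nuclear copies.

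Genes were filtered with filterByExpr (16322 left), scaled by TMM and tested with edgeR 4.0.16 (quasi-likelihood, robust, 2-sided; R 4.3.3, limma 3.58.1) with group as the sole term, and p-values were adjusted by Benjamini-Hochberg across the 16322 genes. The second fit used the summed counts of the 13 mitochondrial mRNAs as library size. CPM are scaled by TMM unless stated otherwise. Fold changes are HSD52_OE over control with SE after ±, and other ± are SD. Class sums and ratios have no test. Alternatives were RLE factors, library totals, scaling without mitochondrial genes, other filters, a replicate block, limma-voom, DESeq2 1.42.0, leaving out each library, and nuclear copies added. Libraries of a group differed beyond counting noise, and far more in control. Chi-square per degree of freedom was 2.23 to 3.51 between HSD52_OE libraries and 15.1 to 18.6 between control libraries. The fit takes a common spread for both groups. All mitochondrial genes are named, tRNA genes one by one from 60 counts in all, nuclear copies from 600, and up to 4 called genes of smallest p per list. The members and lists were chosen with earlier results of these data known.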

Additional observations from a re-analysis of the deposited data

How the results depend on the processing

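MT-ND3, MT-ND4, MT-RNR1, MT-TC, MT-TP and MT-TL1 were called in the same direction in all 15 alternatives of the TMM-scaled comparison. Their log2 fold changes ranged from 0.75 to 0.94, from -0.60 to -0.41, from 0.37 to 0.65, from 0.92 to 1.24, from 0.62 to 0.87 and from -0.86 to -0.64. The cause of the changes that follow was not tested. The count of higher genes was 8, and 4 to 13 with 1 library left out, where 20.2% to 25.3% of all genes tested were higher. The count of lower genes was 2 throughout, and 19.9% to 26.7% of all genes were lower with 1 library left out. With library totals alone, which moved the median of all genes from 0.01 to 0.13, 11 were higher and 2 lower. Relative to the mRNA pool, 4 to 7 were higher and 2 lower with 1 library left out. Replicate numbers did not pair libraries (correlations of deviations 0.0497, 0.0217 and 0.0406). With a replicate block, 9 were higher and 2 lower, MT-ND4L being added (0.27, edgeR adjusted p = 0.0384), and relative to the pool 6 and 2, with MT-TN added. Of all genes tested, 25.8% were higher and 25.9% lower with the block, and 16.6% and 21.3% with the block relative to the pool.

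Some genes that had not passed did so under an alternative. MT-CO3 passed with DESeq2, limma-voom, the filter of 1 CPM, library totals and without control replicate 1 (adjusted p 0.0287, 0.0472, 0.0494, 0.0102 and 0.00930). MT-ND4L and MT-ND2 passed with library totals and without control replicate 1. MT-CO1 and MT-ND6 passed without control replicate 1, and MT-ATP8 without control replicate 2.

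Signs turned only for genes that were not called. With library totals alone MT-ATP6 had 0.0046 and MT-CYB 0.019. With no filter beyond 1 count MT-ATP8 had -0.033 and MT-ND1 -0.034. Relative to the pool, MT-ATP8 had 0.048 with limma-voom and 0.020 with the replicate block. With 1 library left out, log2 fold changes ran from -0.21 to 0.47 for MT-ATP8, -0.013 to 0.18 for MT-CO1, -0.050 to 0.091 for MT-ND1, -0.29 to 0.093 for MT-ND5, -0.10 to 0.28 for MT-ND6, -0.38 to 0.040 for MT-TG, -0.56 to 0.072 for MT-TL2 and -0.045 to 0.18 for MT-TR. Relative to the pool they ran from -0.34 to 0.48 for MT-ATP8, -0.020 to 0.034 for MT-CO1, -0.086 to 0.0024 for MT-ND1, -0.11 to 0.11 for MT-ND6 and -0.081 to 0.19 for MT-TR. The ratio of HSD52_OE over control shares of all counts was 1.14 for mRNAs, 1.43 for rRNAs and 1.69 for tRNAs, and 1.08 to 1.22, 1.26 to 1.53 and 1.48 to 1.84 with 1 library left out. Low counts limit 10 tRNA genes, which entered the fit with no filter beyond 1 count and of which MT-TI passed there.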
